A study of Mus musculus with 6 samples.

Results

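The genes described here are Myc and 38 genes of ribosome biogenesis, 39 of the 18193 genes with a probe set of their own on the arrays. They were taken by symbol from a list of nucleolar factors, RNA polymerase I subunits and Myc, and each was represented by its brightest probe set. The rule used no measured value to take a gene. The list itself was chosen with earlier results of these data known, so it was not blind to them. All 39 were measured, and all had a mean above 5.63, the median of all log2 values, so none was lost to a filter on dim signals. The tested cultures were bone marrow macrophages of E-FABP knockout mice (3 arrays), set against the same cells of wild-type mice (3 arrays); both are labelled C57BL/6, aged 6 to 8 weeks. Fabp5 is the gene of E-FABP, which carries fatty acids inside cells. Every culture had been grown for 7 days with GM-CSF (20 ng/ml), a growth factor that also yields cells with dendritic cell features, and was then kept for 18 h with E0771 mouse breast tumour cells in an insert. All groups therefore share the tumour exposure, and its own effect was not analysed here. The labels give the deletion without a tissue limit, and they do not state whether the biological replicates came from separate animals, so p-values speak of the spread between these samples.

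Ribosome biogenesis begins in the nucleolus, where RNA polymerase I transcribes a long precursor of ribosomal RNA. Small nucleolar RNA-protein particles (snoRNPs) modify the precursor, a large assembly called the small subunit processome cuts and folds one part of it, and a second set of factors builds the large subunit. Myc is a transcription factor that pairs with Max and binds the E-box sequence CACGTG, and many nucleolar genes are known to respond to it in growing cells.

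The labels were first checked on the targeted gene. Fabp5 read 8.13, 8.31 and 8.39 on the knockout arrays, against 14.47, 14.41 and 14.45 on the wild-type arrays (log2 intensity). Of 9 macrophage markers, 8 had a probe set and all 8 lay above the median of all values, with a list mean of 12.10 to 12.29 on knockout and 12.39 to 12.47 on wild-type arrays. The other facts of the arrays were alike: medians of 5.60 to 5.64 and, across probe sets, Pearson's r of 0.9914 to 0.9961 between genotypes. The upper quartile was 7.64 to 7.70 on knockout and 7.60 to 7.62 on wild-type arrays. Scanner background was not analysed here, and the number of arrays limits the precision of every value.

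Ribosome biogenesis genes were mostly a little higher in knockout cultures, and few of them passed the test. Myc, the H/ACA pseudouridine synthase Dkc1 and the pre-ribosome export factor Rrp12 rose, 0 members fell and 36 did not pass (limma, Benjamini-Hochberg adjusted p under 0.05). The 3 that rose are 7.69% of the members, against 2.85% of all genes called higher (2.05% were called lower and 4.9% in either direction) and 4.69% of the 9803 genes whose mean level lay within the members' range, a difference of about 1 or 2 genes. At an adjusted p under 0.1, 12 members (30.8%) were higher, against 7.04% of all genes. The direction was more uniform than the calls. A total of 37 of 39 members (94.9%) had a higher mean in knockout, against 53.1% of all genes and 64.6% of genes within the members' range of level. In 27 members (69.2%) all 3 knockout values lay above all 3 wild-type values, against 20.7% of all genes and 32.4% within that range. The median change was 0.26 (log2) for the members, 0.01 for all genes and 0.06 for genes within that range. Members share arrays and cells and are not replicates of one another, so these shares describe the list and are not a test of it.

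**Figure D1:**
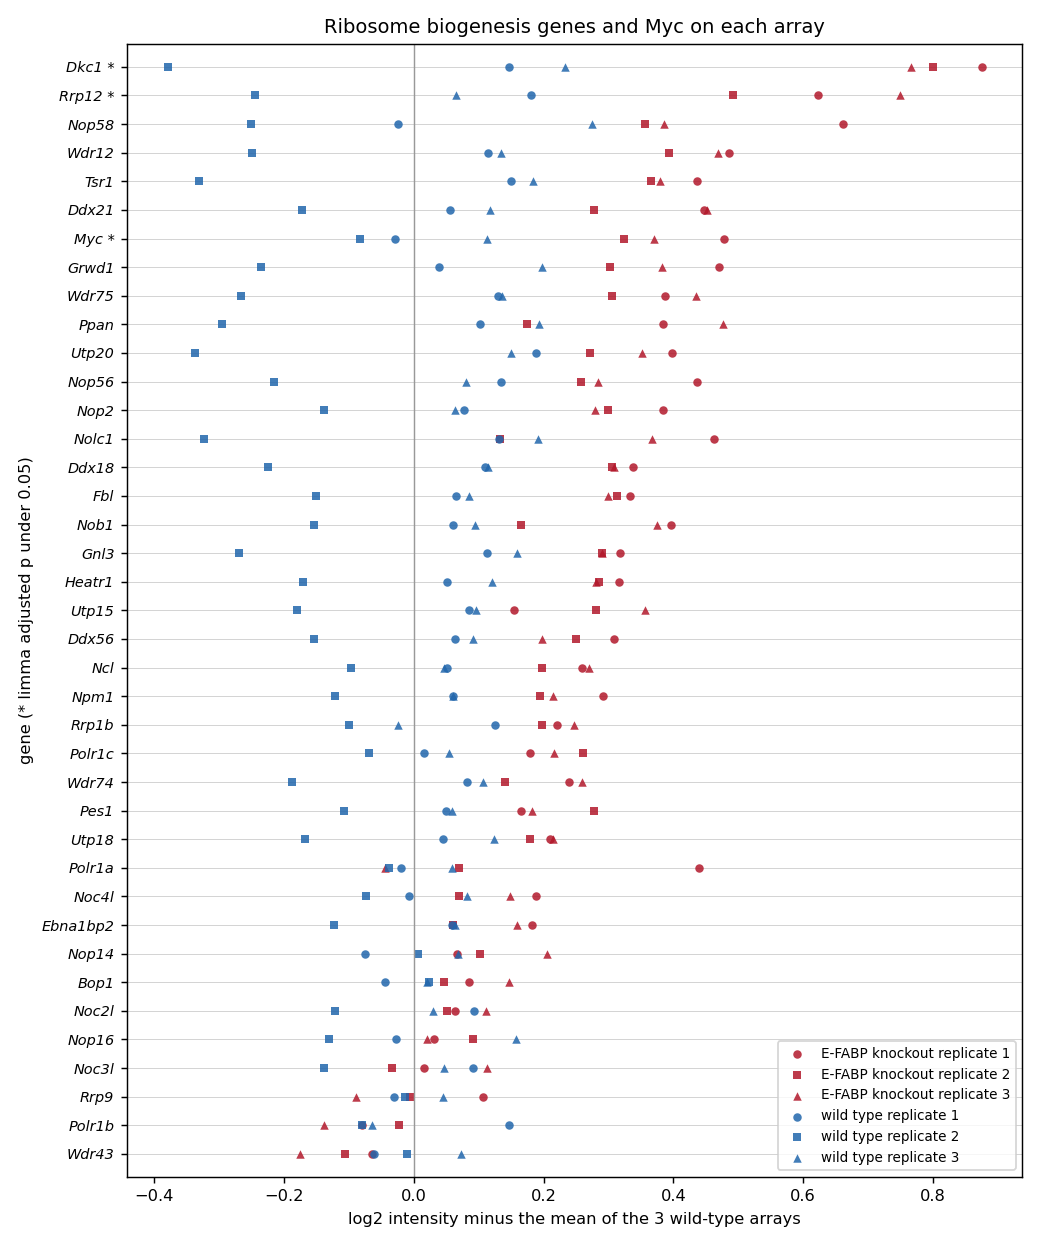
Log2 intensity of each of the 39 genes on each array, minus the mean of the 3 wild-type arrays (horizontal axis); each row is a gene, ordered by its change, red symbols are knockout and blue symbols wild-type arrays, and symbol shape gives the replicate number. Red symbols lie to the right of all blue symbols in 27 rows, and wild-type replicate 2 (blue squares) is the leftmost symbol in 33 rows.

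Part of the size of these differences came from one wild-type array. Wild-type replicate 2 was the lowest of the 6 arrays for 33 of 39 members (84.6%), against 24.9% of all genes. Knockout replicate 1 was the highest for 21 members (53.8%), against 12.9% of all genes. Averaged over the members, knockout replicates 1, 2 and 3 lay at 0.17, 0.09 and 0.13 from each gene's mean over the 6 arrays, and wild-type replicates 1, 2 and 3 at -0.07, -0.29 and -0.03 (log2). The genotypes did not overlap in this mean, and wild-type replicate 2 lay farthest from 0. Without wild-type replicate 2 the members' median change was 0.17 and 34 members had a higher mean. In 27 members all knockout values lay above the remaining wild-type values, against 24.8% of all genes. Leaving out an array cannot lower this count, so the count does not check the part of that array. Calls depended on every array. With wild-type replicate 2 left out, Dkc1 alone rose (0.115% of all genes were called higher). Leaving out knockout replicate 1 or knockout replicate 2 gave 0 members (0.0495% and 0.379% of all genes). Dkc1 alone rose without knockout replicate 3 (2.03%), and Rrp12 alone without wild-type replicate 1 (0.423%). Dkc1, Myc and Nop58 rose without wild-type replicate 3 (1.61%). Testing bright probe sets alone gave 8 members, against 9.24% of the 11285 genes then tested.

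**Figure D2:**
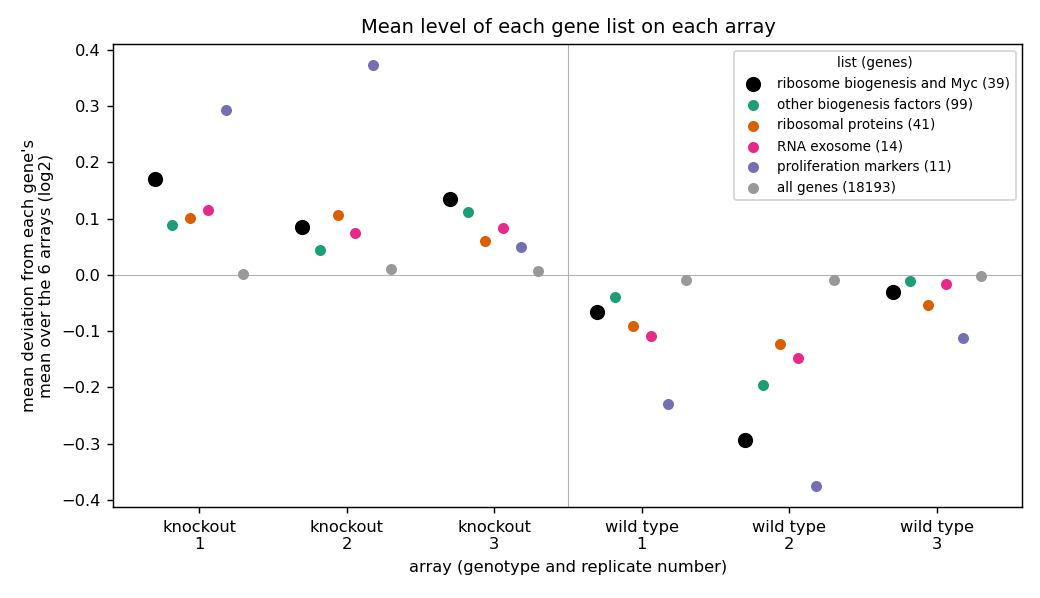
Mean deviation from each gene's mean over the 6 arrays (log2, vertical axis) for 6 gene lists on each array (horizontal axis, knockout to the left of wild type); each point is the mean over a list's genes. The 39 ribosome biogenesis genes and Myc (large black points) lie at 0.09 to 0.17 on knockout and at -0.29 to -0.03 on wild-type arrays, with wild-type replicate 2 lowest.

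Myc, the regulator in the list, was modestly higher in knockout. Its one probe set read 9.71, 9.56 and 9.61 on the knockout arrays, against 9.21, 9.15 and 9.35 on the wild-type arrays. Its 3 knockout values lay above all wild-type values. The change was 0.39 (SE 0.08; 1.31-fold; limma adjusted p = 0.0329). The change was 0.35 to 0.45 whichever array was left out, and it passed in 1 of those 6 fits, without wild-type replicate 3 (limma adjusted p = 0.0436); the highest was 0.110, without wild-type replicate 2. RNA came from whole cultures, so more cells of a type and more RNA per cell cannot be told apart here.

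The partners and antagonists of Myc did not share one direction of change. Of 15 measured network genes 1 rose (6.67%, against 2.85% of all genes and 4.69% within the members' range of level), 1 fell and 13 did not pass. The mean was higher in knockout for 10 and lower for 5. The median change was 0.01 (-0.03 after quantile normalization, -0.02 without wild-type replicate 2). The list mixes partners and antagonists, so this median cannot show whether the network moved with Myc. Mxd1, a Max-binding repressor that competes with Myc for E-boxes, read 8.94, 8.62 and 9.33 on knockout arrays, against 10.21, 10.64 and 10.15 on wild-type arrays. Mxd1 thus fell by 1.37 on the log2 scale (SE 0.18, limma adjusted p = 0.0158), a larger change than that of any of the 39 members. Wild-type replicate 2, the lowest array for most members, was the highest for Mxd1, and 0 of the 15 passed without it. Mxd4, of the same repressor family, rose by 0.42 (SE 0.09, limma adjusted p = 0.0422). Max, the shared partner, read 8.96, 8.81 and 9.10 in knockout and 9.22, 9.32 and 9.24 in wild type (change -0.30, limma adjusted p = 0.0856), with no overlap but without passing.

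**Figure D3:**
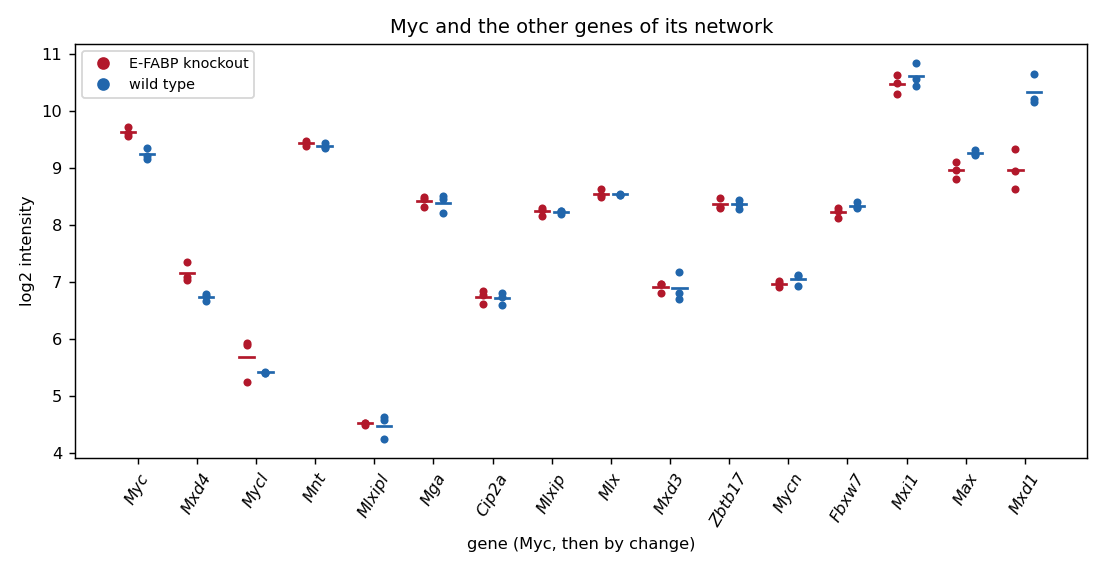
Log2 intensity (vertical axis) of Myc and 15 genes of its network (horizontal axis); red points are the 3 knockout and blue points the 3 wild-type arrays, and bars are means. Levels of different genes come from different probes and are not comparable; Myc is higher (9.63 against 9.24) and Mxd1 lower (8.96 against 10.33) in knockout.

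The snoRNP proteins held the largest change of the list. These proteins carry the guide RNAs that place methyl groups and pseudouridines on ribosomal RNA. Of the 5 measured, 4 were higher on every knockout array than on any wild-type array. These are 80.0%, against 20.7% of all genes and 32.4% within the members' range of level. Dkc1, the pseudouridine synthase of H/ACA particles and also a component of telomerase, read 9.38, 9.31 and 9.27 on knockout arrays, against 8.65, 8.13 and 8.74 on wild-type arrays. The knockout values lay close together and the wild-type values did not, with a range of 0.11 in knockout and 0.61 in wild type. Dkc1 rose by 0.81 (SE 0.14; 1.76-fold; limma adjusted p = 0.0240), above 99.84% of all genes' changes. Its other probe sets changed by 0.88 (limma adjusted p = 0.0392) and 0.65 (limma adjusted p = 0.0686), so 2 of its 3 probe sets passed. Without wild-type replicate 2 the change was 0.62 (limma adjusted p = 0.0369); it did not pass without knockout replicate 1 (0.0899), knockout replicate 2 (0.0735) or wild-type replicate 1 (0.05002).

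The other measured H/ACA core proteins, Gar1, Nhp2 and Nop10, changed by 0.30, 0.29 and 0.21, and none passed. Nop58, a core protein of box C/D particles, read 9.73, 9.42 and 9.45 in knockout and 9.04, 8.82 and 9.34 in wild type, and its partner Nop56 read 9.44, 9.26 and 9.29 in knockout and 9.14, 8.79 and 9.08 in wild type. Their changes were 0.47 (limma adjusted p = 0.0919) and 0.33 (limma adjusted p = 0.111). Fbl, the methyltransferase of box C/D particles, read 10.55, 10.53 and 10.51 in knockout and 10.28, 10.06 and 10.30 in wild type (change 0.32, limma adjusted p = 0.0609). The genotypes of all 3 genes were apart, and none passed. Rrp9, which binds the U3 particle, showed 8.20, 8.09 and 8.00 in knockout and 8.06, 8.08 and 8.14 in wild type; these overlapped, and the change of 0.0040 had an SE of 0.07.

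Among the 11 factors of the small subunit, Rrp12 rose (9.09%, against 2.85% of all genes and 4.69% within the members' range of level). In 8 of the 11 every knockout value lay above every wild-type value. These are 72.7%, against 20.7% of all genes and 32.4% within the members' range of level. Rrp12, a protein needed for export and maturation of pre-ribosomes, read 6.60, 6.47 and 6.72 in knockout, against 6.16, 5.73 and 6.04 in wild type. It rose by 0.62 (SE 0.12; 1.54-fold; limma adjusted p = 0.0269), measured by a single probe set not far above the median of all values. Without wild-type replicate 2 its change was 0.50 (limma adjusted p = 0.0803), and of the 6 fits that each left out 1 array it passed in that without wild-type replicate 1 (limma adjusted p = 0.0428). Of the processome proteins of the group linked to transcription of the precursor, none passed. Wdr75 read 8.91, 8.83 and 8.96 in knockout and 8.65, 8.26 and 8.66 in wild type (change 0.38, limma adjusted p = 0.0956), and Heatr1 read 8.97, 8.94 and 8.93 in knockout and 8.70, 8.48 and 8.77 in wild type (change 0.29, limma adjusted p = 0.0910). Wdr43, of the same group, was one of the 2 members with a lower mean, at 9.116, 9.074 and 9.004 in knockout and 9.118, 9.170 and 9.252 in wild type. Its values just failed to overlap, with all knockout values below (as in 11.2% of all genes), but the change of -0.12 did not pass (limma adjusted p = 0.401), and its other probe set changed by 0.01. Nob1, the nuclease that makes the final cut of the small subunit RNA, read 8.25, 8.02 and 8.23 in knockout and 7.92, 7.70 and 7.95 in wild type (change 0.31, limma adjusted p = 0.101). The other 6, which include Utp15 of the same group, the processome proteins Utp18, Utp20 and Nop14, its partner Noc4l and the late factor Tsr1, changed by 0.12 (Nop14) to 0.39 (Tsr1), and none passed.

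**Figure D4:**
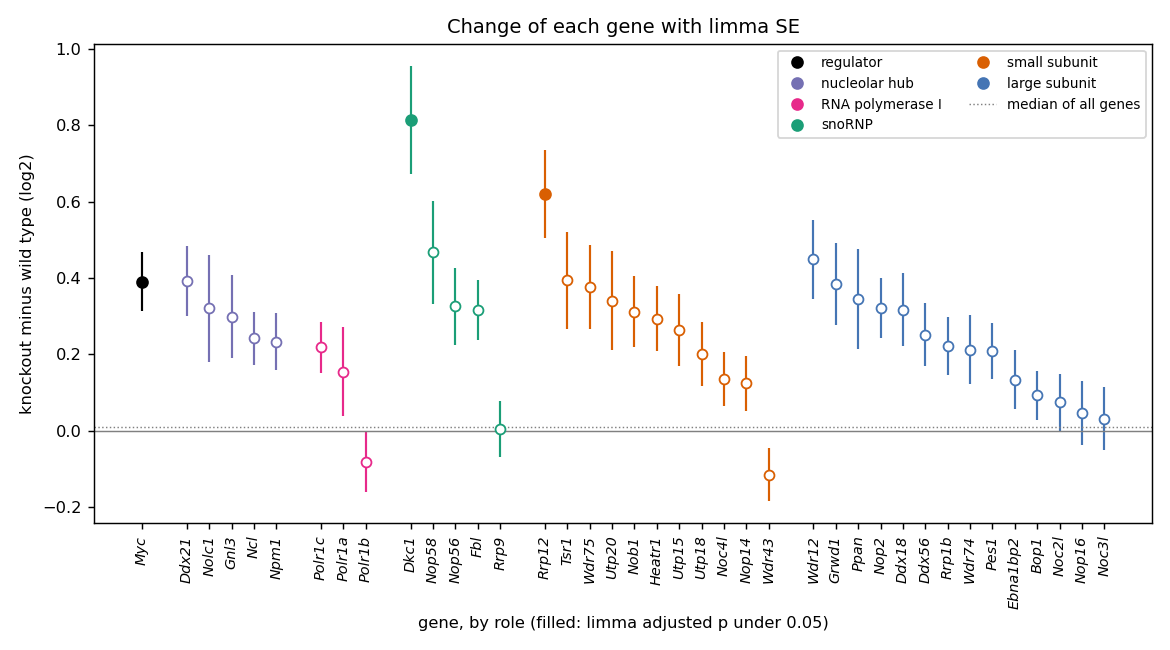
Change of each gene between knockout and wild type (log2, vertical axis) with limma's SE as error bars, grouped by role (horizontal axis, colours); filled points have a limma adjusted p under 0.05 and the dotted line is the median of all genes (0.01). Dkc1 (0.81), Rrp12 (0.62) and Myc (0.39) are filled, and Wdr43 (-0.12) and Polr1b (-0.08) lie below 0.

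The 14 factors of the large subunit all had a higher mean in knockout, and 0 passed (9 were higher at an unadjusted limma p under 0.05, as were 15.2% of all genes). Wdr12, Pes1 and Bop1 form the PeBoW complex, which is needed to process the large subunit's RNA, and none of the 3 passed. Wdr12 lay just outside the threshold, with 8.09, 8.00 and 8.07 in knockout and 7.72, 7.35 and 7.74 in wild type (change 0.45, SE 0.10, limma adjusted p = 0.0506). Pes1 read 9.77, 9.88 and 9.78 in knockout and 9.65, 9.49 and 9.66 in wild type (change 0.21, limma adjusted p = 0.154). Bop1 changed by 0.09 (SE 0.07, limma adjusted p = 0.477), and its other probe set by 0.18; the differences between the 3 genes were not tested. Nop2, an RNA methyltransferase, read 8.46, 8.38 and 8.36 in knockout and 8.16, 7.94 and 8.14 in wild type (change 0.32, limma adjusted p = 0.0594). Grwd1, a histone-binding nucleolar protein, read 7.85, 7.68 and 7.76 in knockout and 7.42, 7.15 and 7.58 in wild type (change 0.38, limma adjusted p = 0.0868). The helicase Ddx18 read 9.15, 9.12 and 9.13 in knockout and 8.93, 8.59 and 8.93 in wild type (change 0.32, limma adjusted p = 0.105). At the other end Noc2l, Nop16 and Noc3l changed by 0.07, 0.05 and 0.03, each with overlapping genotypes; the other probe set of Noc3l changed by 0.44 (limma adjusted p = 0.0614), so its probe sets disagree. The remaining members of this group, Ppan, Ddx56, Rrp1b, Wdr74 and Ebna1bp2, changed by 0.13 (Ebna1bp2) to 0.35 (Ppan).

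The abundant nucleolar proteins had changes of 0.23 to 0.39, and 0 of 5 passed. All 5 were higher at an unadjusted limma p under 0.05, as were 15.2% of all genes. The RNA helicase Ddx21, which acts on precursor transcription and on snoRNAs, was the nearest to the threshold, with 9.39, 9.22 and 9.39 in knockout and 8.99, 8.77 and 9.06 in wild type (change 0.39, limma adjusted p = 0.0526). Its other probe set changed by 0.12 (limma adjusted p = 0.595). Ncl, which codes for nucleolin, read 11.98, 11.92 and 11.99 in knockout and 11.77, 11.62 and 11.77 in wild type (change 0.24, limma adjusted p = 0.0933), and 1 of its other 4 probe sets passed (0.36, limma adjusted p = 0.0411). Npm1, the histone and ribosome chaperone nucleophosmin, changed by 0.23, Gnl3, the nucleolar GTPase nucleostemin, by 0.30, and Nolc1, a chaperone of snoRNPs, by 0.32. Of these 5 genes, Nolc1 was the one whose genotypes overlapped.

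Of the 3 RNA polymerase I subunits among the members, 0 passed, and their median change was 0.15. Polr1a, the largest subunit, read 7.59, 7.22 and 7.10 in knockout and 7.13, 7.11 and 7.21 in wild type, and its change of 0.15 (limma adjusted p = 0.508) was 0.01 without knockout replicate 1. Of its 4 dimmer probe sets, those next in brightness changed by 0.22 (limma adjusted p = 0.138) and 0.24 (limma adjusted p = 0.179), and in both every knockout value lay above every wild-type value. Polr1b, the other large catalytic subunit, was the second member with a lower mean, at 5.97, 6.02 and 5.91 in knockout and 6.19, 5.97 and 5.98 in wild type (change -0.08, SE 0.08, limma adjusted p = 0.635). Polr1c, which RNA polymerase III shares, read 8.98, 9.07 and 9.02 in knockout and 8.82, 8.74 and 8.86 in wild type (change 0.22, limma adjusted p = 0.107), with no overlap. Among 14 other genes of this machinery 2 rose (14.3%, against 2.85% of all genes and 4.69% within the members' range of level), 0 fell and 12 did not pass. Their median change was 0.15. The 2 were the subunit Polr1e (0.56, SE 0.12, limma adjusted p = 0.0385) and the topoisomerase Top2a (0.67, SE 0.15, limma adjusted p = 0.0441), which is also a mitotic gene.

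Most other probe sets of the members were also higher in knockout. The 39 genes had 81 probe sets, of which 42 were not the brightest. Of these 42, 39 were higher and 3 lower in knockout, 3 rose (2.06% of all probe sets did) and 0 fell, and their median change was 0.22. The 3 belonged to Dkc1, Ncl and Rrp1b, and that of Rrp1b changed by 0.46 (limma adjusted p = 0.0383) where its brightest changed by 0.22 (limma adjusted p = 0.139). Over all genes by their brightest probe set, an unlike background, every knockout value lay above every wild-type value in 20.7%. Among the 42 dimmer probe sets this held in 20. Others overlapped although the brightest did not. That of Utp15 changed by 0.06 where its brightest changed by 0.26. Those of Heatr1 changed by 0.08 and -0.06 where its brightest changed by 0.29. Probe sets of 1 gene share its transcripts and are not independent of each other.

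Promoter windows are shown for 4 members that span the response and for Ddx21, to set the E-box beside the changes. They run from 250 bases before to 50 bases after a transcript start and come from RefSeq's GRCm38.p6 annotation, which holds a window for 34 of the 39 members and none here for Bop1, Fbl, Myc, Npm1 and Rrp12. Capitals mark CACGTG, which reads the same on both strands, or its variant CACGCG, searched on both strands as CACGCG and CGCGTG; no matches overlapped. Dkc1 (chrX:75095604-75095903, plus strand) rose most and held neither motif. Nop2 (chr6:125131633-125131932, plus strand) and Grwd1 (chr7:45830740-45831039, minus strand) held CACGTG, first base at -60 and at 35 from the start, with changes of 0.32 and 0.38. Wdr43 (chr17:71615965-71616264, plus strand), with CACGTG at 18, had a lower mean in knockout (-0.12), and Ddx21 (chr10:62602249-62602548, minus strand), with CACGCG at 39, changed by 0.39.
Dkc1: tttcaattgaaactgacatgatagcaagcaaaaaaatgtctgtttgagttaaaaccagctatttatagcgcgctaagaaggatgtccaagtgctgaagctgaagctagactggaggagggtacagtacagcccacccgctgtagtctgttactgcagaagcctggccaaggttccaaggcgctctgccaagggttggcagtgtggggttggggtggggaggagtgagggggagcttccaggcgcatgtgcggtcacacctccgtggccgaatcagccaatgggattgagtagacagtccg
Nop2: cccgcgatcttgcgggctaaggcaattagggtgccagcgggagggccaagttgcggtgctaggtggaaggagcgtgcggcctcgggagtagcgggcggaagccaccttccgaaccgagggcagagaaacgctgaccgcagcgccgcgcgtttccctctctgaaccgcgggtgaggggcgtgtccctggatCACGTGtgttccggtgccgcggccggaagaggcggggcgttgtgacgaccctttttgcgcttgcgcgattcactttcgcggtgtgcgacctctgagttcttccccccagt
Grwd1: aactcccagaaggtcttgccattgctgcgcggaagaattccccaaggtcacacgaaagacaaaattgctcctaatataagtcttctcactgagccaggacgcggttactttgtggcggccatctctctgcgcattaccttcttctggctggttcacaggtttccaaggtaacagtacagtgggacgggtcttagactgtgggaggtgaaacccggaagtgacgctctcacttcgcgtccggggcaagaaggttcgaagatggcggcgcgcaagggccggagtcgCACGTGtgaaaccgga
Wdr43: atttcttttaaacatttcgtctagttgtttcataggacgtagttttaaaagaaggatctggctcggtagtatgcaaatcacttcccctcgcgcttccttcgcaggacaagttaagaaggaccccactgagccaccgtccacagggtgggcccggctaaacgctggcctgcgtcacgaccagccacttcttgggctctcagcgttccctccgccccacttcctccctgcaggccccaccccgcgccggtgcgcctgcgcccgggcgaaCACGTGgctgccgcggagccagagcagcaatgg
Ddx21: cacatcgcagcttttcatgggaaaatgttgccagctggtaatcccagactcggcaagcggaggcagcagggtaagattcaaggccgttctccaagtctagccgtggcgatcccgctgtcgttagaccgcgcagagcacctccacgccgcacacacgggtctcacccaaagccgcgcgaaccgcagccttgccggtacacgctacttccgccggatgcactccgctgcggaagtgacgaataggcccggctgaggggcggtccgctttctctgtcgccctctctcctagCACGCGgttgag

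A CACGTG was present in 7 of the 34 members with a window (20.6%), against 8.09% of the 27025 genes with a window, 10.2% of the 14452 of these on the array and 22.2% of 81 other biogenesis factors. CACGCG was present in 26.5% of the members, against 10.5% of all genes with a window, 16.2% of those on the array and 33.3% of the other biogenesis factors. The 7 members with CACGTG (Tsr1, Grwd1, Utp20, Nop2, Pes1, Utp18 and Wdr43) had a median change of 0.32 and a range of -0.12 to 0.39. The 27 without it had a median of 0.25 and a range of -0.08 to 0.81. The ranges overlapped, and the 2 sets were not tested against each other. A match is a description of the letters in these windows, and says nothing of binding here.

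Most genes of the wider pathway also had a higher mean in knockout, while few passed. Of 99 other biogenesis factors 4 rose (4.04%, against 2.85% of all genes and 4.69% of genes within the members' range of level), 0 fell and 95 did not pass. A higher mean was found in 90 (90.9%, against 53.1% of all genes and 64.6% within that range). In 48 (48.5%, against 20.7% and 32.4%) every knockout value lay above every wild-type value. The median change was 0.17. The 4 were the processome proteins Imp3 (0.55, limma adjusted p = 0.0340) and Wdr3 (0.38, limma adjusted p = 0.0326) and the helicases Ddx49 (0.33, limma adjusted p = 0.0451) and Ddx10 (0.31, limma adjusted p = 0.0393). The RNA exosome trims ribosomal RNA precursors. Of its 14 genes 2 rose (14.3%, against 2.85% of all genes and 4.69% within the members' range of level), 0 fell and 12 did not pass. The median was 0.24, and 2 had a lower mean, the lowest change being -0.33. The 2 were Exosc7 (0.41, limma adjusted p = 0.0438) and Exosc8 (0.34, limma adjusted p = 0.0321). Of 27 known Myc targets outside the nucleolus 5 rose (18.5%, against 2.85% of all genes and 4.69% within the members' range of level). Of the others 0 fell and 22 did not pass, and 22 of the 27 had a higher mean (median 0.18). In Slc3a2 (-0.30) and Nampt (-0.21) every knockout value lay below every wild-type value, and neither passed. Shmt2, the mitochondrial serine-to-glycine enzyme, rose by 0.81 (SE 0.08, limma adjusted p = 0.00705), as large a change as that of Dkc1 and with 7.17, 7.36 and 7.22 in knockout against 6.48, 6.34 and 6.51 in wild type. The transferrin receptor Tfrc (0.48), the purine synthesis enzyme Ppat (0.46), the arginine methyltransferase Prmt1 (0.35) and the cell cycle kinase Cdk4 (0.29) rose too, the last chosen after its value was seen. Without wild-type replicate 2 the medians of the other biogenesis, exosome and Myc target lists were 0.10, 0.18 and 0.11, and 0, 0 and 1 of their genes rose; of the 14 other polymerase I genes 0 rose.

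Ribosomal proteins themselves, the protein part of the end product, were higher in knockout by amounts of 0.07 (Rps26) to 0.56 (Rpl12) in log2 units. All 41 measured of the 73 listed had a higher mean in knockout, against 53.1% of all genes. In 39 (95.1%) every knockout value lay above every wild-type value. This held for 20.7% of all genes and 32.4% within the members' range of level. The list mean was 12.07 to 12.30 over the arrays, above the highest mean of a member (11.96). Genes of that brighter level were not set beside the list. The median change was 0.16, and 0.14 without wild-type replicate 2, when 0 passed. Rpl14 (0.50, limma adjusted p = 0.0441) and Rpl37 (0.32, limma adjusted p = 0.0293) rose, 0 fell and 39 did not pass. Those that rose are 4.88%, against 2.85% of all genes and 4.69% within the members' range of level. After quantile normalization of the deposited values all 41 were still higher, with a median of 0.14. Ribosomal protein genes have many near-identical pseudogenes, so a probe set's signal can include other copies.

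**Figure D5:**
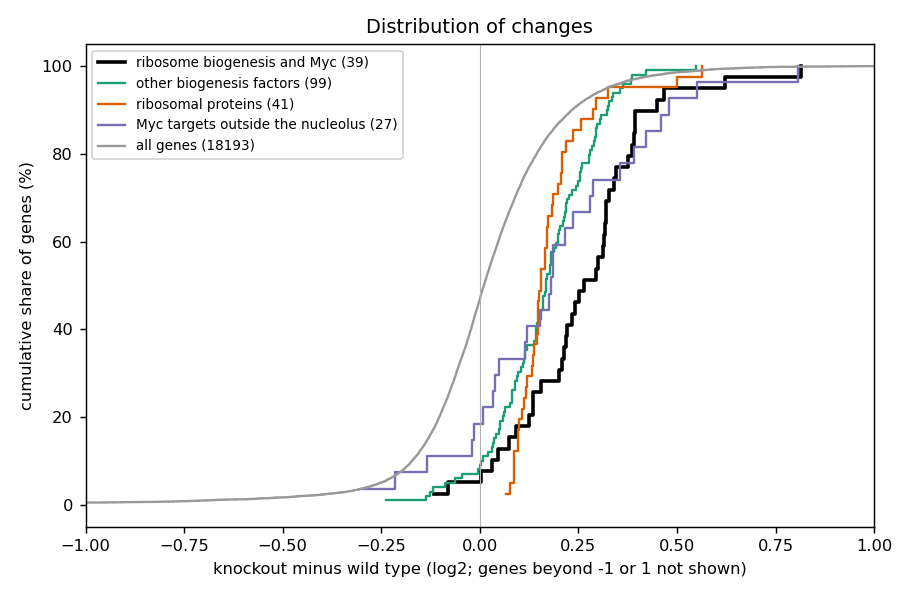
Cumulative share of genes (percent, vertical axis) by change between knockout and wild type (log2, horizontal axis) for the 39 ribosome biogenesis genes and Myc (black), 3 related lists (colours) and all 18193 genes (grey). The black curve lies to the right of the grey one (medians 0.26 and 0.01), and all 41 ribosomal protein genes lie above 0 (median 0.16).

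Markers of proliferation and of other cell types moved on the same arrays. Of 11 proliferation markers 7 rose (63.6%, against 2.85% of all genes), 0 fell and 4 did not pass (median 0.58). Mcm3 (0.71), Rrm2 (1.19), Cdk1 (0.45) and Mcm2 (0.59) had the smallest p. The mean deviation of the 11 markers was 0.29, 0.37 and 0.05 on knockout replicates 1, 2 and 3. It was -0.23, -0.38 and -0.11 on wild-type replicates 1, 2 and 3. Wild-type replicate 2 was thus lowest for this list as for the ribosome biogenesis genes, whereas knockout replicate 2 was highest for proliferation and lowest among the knockout arrays for ribosome biogenesis. Of 9 dendritic cell markers 1 rose (Batf3, 0.53, which is 11.1% of the list), 0 fell and 8 did not pass. Their list mean was 7.03 to 7.33 in knockout and 6.91 to 7.07 in wild type. Of 8 neutrophil markers 0 passed and 6 were lower at an unadjusted limma p under 0.05, as were 1482 of all 18193 genes. Their list mean was 7.78 to 8.31 in knockout and 8.44 to 8.70 in wild type. Of 8 fibroblast markers 3 fell (Col1a2, Dcn and Col3a1), where 2.05% of all genes fell. Their list mean was 4.92 to 5.04 in knockout and 5.43 to 5.49 in wild type. Of 8 macrophage markers the Fc receptor Fcgr1 (-1.13) and the engulfment receptor Mertk (-0.46) fell and 6 did not pass. Without wild-type replicate 2, of all these marker genes 1 passed, a fibroblast marker, while the median of the proliferation list was 0.52. The part of these shifts in the ribosome biogenesis values was not tested.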

How the data were processed

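Total RNA of 3 E-FABP knockout and 3 wild-type cultures was labelled with the Affymetrix 3' IVT kit and hybridised to 6 arrays (per the labels' protocols). Values deposited by the authors are log2 intensities of probe sets, a scale read from their range. Per the submitters' processing notes, the tools were GCRMA 2.30.0, RMA, limma 3.14.4 and affy 1.36.1, in no stated order; the sources used here leave unsettled whether GCRMA or RMA made the values. Such methods make array distributions alike, which hides a shift of most genes.

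After 64 Affymetrix controls were left out, 45037 probe sets were fitted with limma 3.58.1 under R 4.3.3, using lmFit then eBayes on genotype alone. P-values were adjusted by Benjamini-Hochberg over all probe sets, with a threshold of 0.05. A change is the knockout mean minus the wild-type mean in log2 units. Gene names came from the platform annotation (34945 probe sets with 1 gene, 932 with several, 9160 unnamed here). Each of 18193 genes was represented by its brightest probe set (mean of 6 arrays). A permutation of 3 against 3 arrays cannot give a two-sided p under 0.1.

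Members, lists and the rule for named genes were chosen with earlier results of these data known. The rule gave values on every array for Myc and for the members with the smallest p, and named all members with a lower mean. It took up to 4 genes past the threshold from each other list. Beyond this rule, values on every array are given for Nop56, Pes1, Polr1a, Polr1b, Rrp9, Wdr43, Mxd1, Max and Shmt2. Also beyond it, Max, Gar1, Nhp2, Nop10, Slc3a2, Nampt, Rps26 and Rpl12 are named though they did not pass. On simulated arrays with 200 of 45037 probe sets changed, log2 changes of 0.3, 0.5, 1 and 2 were recovered in 2%, 42%, 82% and 100% of cases, with 8 false calls. The simulated noise was independent between probe sets, without a shared shift such as that of wild-type replicate 2. In the real data 927 probe sets were called higher alone, so these rates need not hold there. Alternatives were quantile normalization, median centring, bright probe sets only, trend and robust options of eBayes, values raised to at least the 20th percentile (4.07), a block for the replicate number, array weights, other probe set choices, an adjusted p under 0.1 and leaving out each array. No 2 arrays held the same values.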

Additional observations from a re-analysis of the deposited data

How the results depend on the processing

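All 3 members called in the reported fit kept their direction in every alternative. For the arrays left out this was fixed in advance, since every knockout value of these genes lay above every wild-type value. The replicate block, the eBayes options and the relaxed threshold leave the size of a change as it is. Of 623 comparisons of a member's change with its reported value, 566 kept direction and side of the threshold, 30 gained a call, 19 lost one and 8 changed sign. The median change of the members stayed between 0.17 (without wild-type replicate 2) and 0.31 over the arrays left out and between 0.23 and 0.27 in the other settings, and the number of members called lower was 0 throughout. The number called higher, 3 as reported, was 13 with trend and robust settings, 12 at an adjusted p under 0.1, 8 with bright probe sets only, 5 with median centring, 0 with the floor, 0 with the replicate block and 0 to 3 over the arrays left out. It was 5 when any probe set of a member could count, an alternative chosen after seeing the data and given without a share of all genes. Of all genes, 519 were called higher as reported, 1184 with trend and robust settings and 1280 (7.04%) at an adjusted p under 0.1. With median centring 657 were higher, and with bright probe sets only 1043 (9.24% of 11285). With the floor 24 were higher, with the replicate block 22, and over the arrays left out 9 to 369. The number of all genes called in either direction was 892 as reported, 1941 at an adjusted p under 0.1 and 1687 with trend and robust settings. It was 1522 with bright probe sets only, 31 with the floor, 45 with the replicate block and 17 to 769 over the arrays left out. Myc's change was 0.39 and not called with the floor (limma adjusted p = 0.107) or the replicate block (limma adjusted p = 0.0703), and 0.35 to 0.45 over the arrays left out. Noc3l, Nop16 and Rrp9, not called in any setting, changed sign in some. With quantile normalization Noc3l was at -0.0236 and Rrp9 at -0.048. Over the arrays left out, Noc3l ran between -0.0369 and 0.0779, Nop16 between -0.0182 and 0.1257 and Rrp9 between -0.0472 and 0.0503. The cause of these shifts was not tested.

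Over all probe sets, deviations from the genotype means correlated at -0.064, -0.043 and -0.132 for the pairs of replicates 1, 2 and 3. No array correlated best with its own number. Such values cannot show whether arrays of the same number were handled together. Averaged over the members, replicate 2 was the lowest array of each genotype (0.09 in knockout, -0.29 in wild type). Of the members called in the reported fit 0 were called with a block for the replicate number.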

Other observations

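The mean of the 8 epithelial markers was 6.18 to 6.28 on knockout and 6.17 to 6.31 on wild-type arrays, 5 of the 8 lay above the median of all values, and 0 passed limma's test (1 was higher and 0 lower at an unadjusted p under 0.05). The mean of the 5 lymphoid markers was 4.71 to 4.80 on knockout and 4.83 to 4.90 on wild-type arrays, without overlap. Of the 5, 1 lay above that median, and 0 passed limma's test (0 were higher and 2 lower at an unadjusted p under 0.05). Of all 18193 genes, 2769 were higher and 1482 lower at that unadjusted threshold.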
